A study of Homo sapiens with 5 samples.

Results

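The genes described here encode the machinery that copies DNA and the enzymes that supply its building blocks. The set held 52 genes, chosen by name for these functions and found by gene symbol among the 57221 rows of the deposited count table. All 52 had at least 10 counts in 2 or more of the 5 libraries, a rule that kept 13137 rows of the table, and all were among the 13075 genes tested. Counts of the members ran from 73 in a library (POLE2) to 12160 (MCM7).

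The cells were NK92MI, a human natural killer cell line that carries an introduced IL2 gene and so grows without added interleukin 2. One group was cultured for 48 h with 10 µM UNC1999, an inhibitor of the histone H3 lysine 27 methyltransferases EZH2 and EZH1 (3 libraries), and the other with the solvent DMSO (2 libraries). RNA sequencing gave between 8442908 and 8748106 counts assigned to genes per library. Both groups are of the same line. The labels do not state whether replicates were grown separately, and p-values here therefore reflect the variation among these 5 samples alone, part of which could be technical. UNC1999 replicate 2 stood apart from the other UNC1999 libraries, with chi-square statistics of 8.09 and 9.49 per degree of freedom against them and 1.87 between replicates 1 and 3. Markers of NK cells were present (9 of 10, summing to 6007 to 6847 CPM in UNC1999 libraries and 6555 and 6681 CPM in DMSO libraries), with NCR3 at 0. Of the T cell markers, TRAC had 82.6 to 92.9 CPM in UNC1999 and 107.8 and 115.9 CPM in DMSO, while CD3G, CD4 and CD8B were at 0. The B cell, erythroid and epithelial or stromal markers together stayed below 1 CPM per list in all 5 libraries. The myeloid list summed to 5.89 to 6.94 CPM in UNC1999 and 5.21 and 5.95 CPM in DMSO, nearly all of it from CSF1R, and LYZ was at 0.

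DNA replication begins when the origin recognition complex marks a site and CDC6 and CDT1 load the MCM ring around the DNA. In S phase CDC45 and the GINS complex join the ring to form the active helicase, polymerase alpha with primase starts each strand, and polymerases delta and epsilon extend it behind the sliding clamp PCNA. Many of these genes are textbook targets of E2F transcription factors and are transcribed mainly around the entry into S phase in dividing cells.

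With UNC1999, 20 of the 52 genes fell and 8 rose, while 24 did not pass the test (edgeR quasi-likelihood test, adjusted p under 0.05). The called share was 53.8%, beside 35.2% of all tested genes. The lower share was 38.5%, beside 19.5% of all tested genes, and the higher share was 15.4%, beside 15.7%. The called changes were modest, from a fold of 0.56 for MCM4 to one of 1.70 for TOPBP1. The median log2 fold change of the 52 genes was -0.063, and that of all tested genes was -0.012. All 3 UNC1999 libraries lay on the same side of both DMSO libraries for 36 members (69.2%, beside 54.6% of all tested genes). These shares were not matched for counts. Members had at least 73 counts in every library, while some tested genes had fewer. A change is easier to call at higher counts, and how far this raised the members' shares was not tested. In bulk RNA, fewer cells in S phase and less RNA per cell cannot be told apart. The summed level of the 52 genes was 9894, 9909 and 10100 CPM in the UNC1999 libraries, below the 11402 and 10997 CPM of the DMSO libraries.

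**Figure D1:**
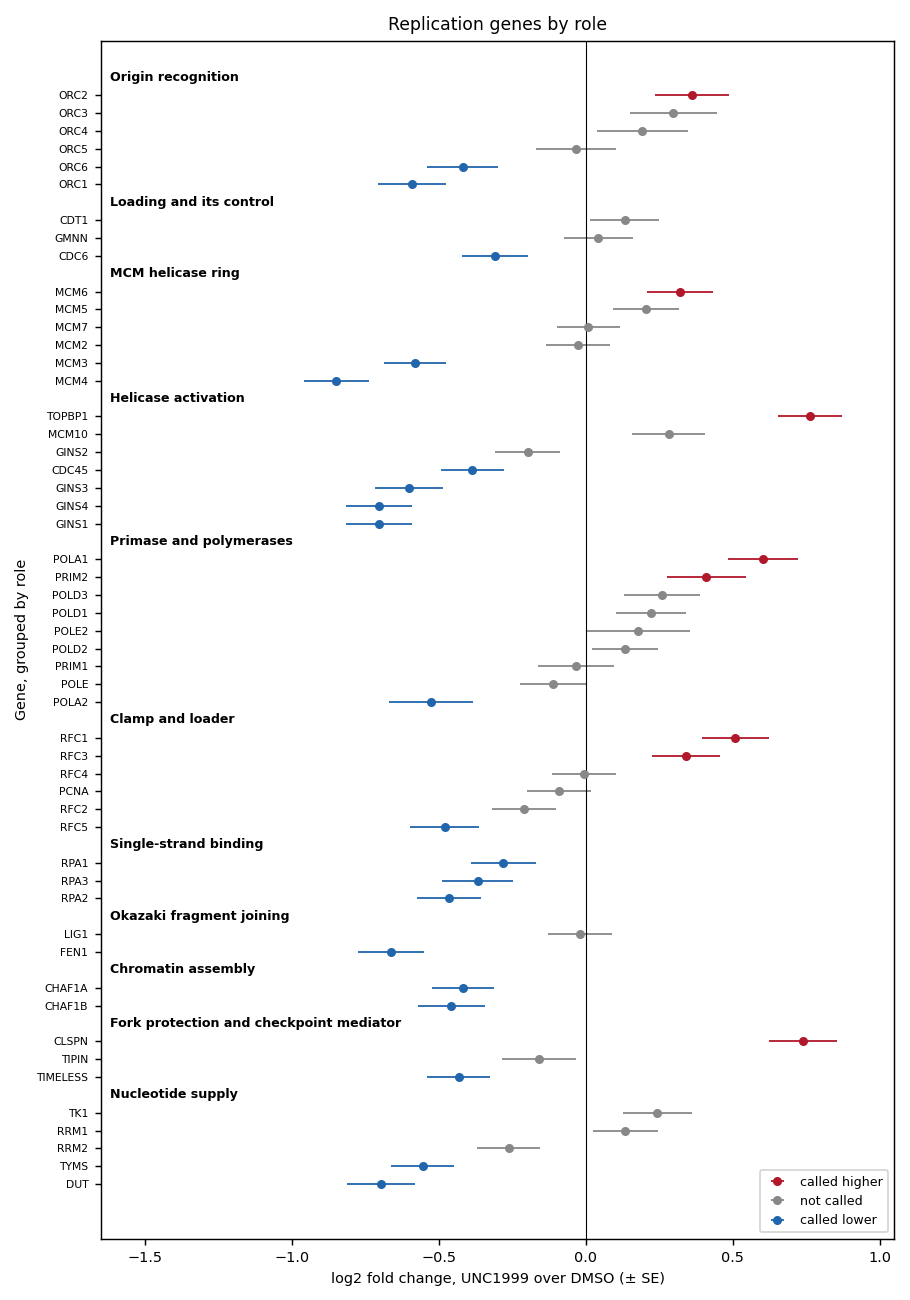
Log2 fold change of UNC1999 over DMSO for each of the 52 genes, with the standard error as a bar, grouped by role (vertical axis). The 20 lower genes reach -0.85 (MCM4), the 8 higher ones reach 0.76 (TOPBP1), and most roles hold genes of more than 1 kind of call.

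These counts depended on the libraries and on the scaling. Without UNC1999 replicate 2, 13 members were higher and 22 lower (22.2% and 23.5% of all tested genes). Without DMSO replicate 1 the counts were 4 and 13 (8.57% and 10.1%), and without DMSO replicate 2 they were 5 and 16 (9.69% and 12.3%). Without normalization factors, which raised the median of all genes by 0.10 on the log2 scale, 14 members were higher and 17 lower (22.6% and 13.3% of all tested genes). The replicate block gave 8 and 17 (14.4% and 16.3%), a threshold of 0.01 gave 4 and 17 (10.8% and 13.7%), and glmTreat, which tests against a fold change of 1.2, gave 4 and 9 (9.32% and 8.93%). Without UNC1999 replicate 1 the counts were 7 and 17 (13.6% and 15%), and without UNC1999 replicate 3 they were 8 and 17 (14.1% and 15.8%). With offsets that remove the trends of GC content and transcript length from every library, 8 were higher and 16 lower (15.5% and 18.4% of the 11026 genes tested in that fit), and of the 18 calls kept, 10 had a log2 fold change smaller by more than 1.5 times, 9 lower and 1 higher. Of the 28 called members, 13 kept the same call under every alternative tried, 9 of them lower (MCM4, MCM3, GINS1, GINS3, GINS4, ORC1, FEN1, TYMS and DUT) and 4 higher (TOPBP1, CLSPN, POLA1 and RFC1), although their sizes moved. With offsets TYMS had -0.17, ORC1 -0.22, MCM3 -0.23, GINS3 -0.25 and FEN1 -0.36, against -0.56, -0.59, -0.58, -0.60 and -0.66 without them. UNC1999 replicate 2 was the UNC1999 library nearest to the DMSO mean for 17 of the 28 called members.

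**Figure D2:**
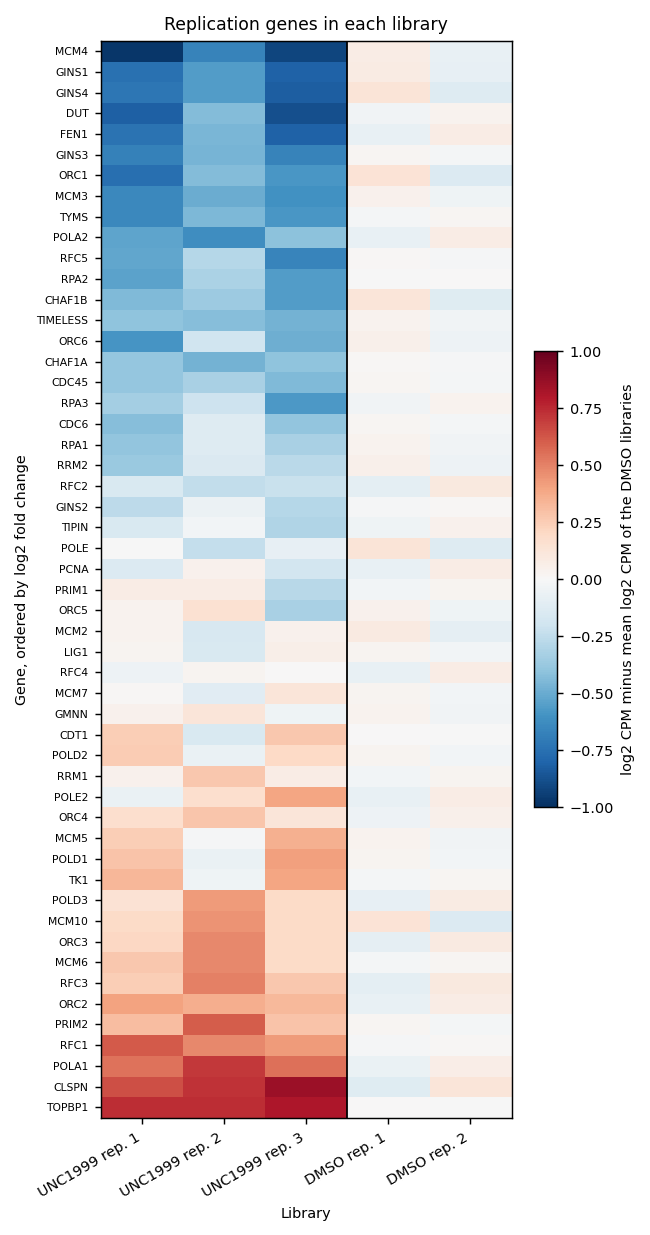
Log2 CPM of each gene in each library minus the mean of the DMSO libraries (colour), with the UNC1999 libraries left of the DMSO libraries and the genes ordered by log2 fold change. The lowest value is -0.98, in UNC1999 replicate 1, and the highest is 0.85, in UNC1999 replicate 3, while the DMSO libraries stay within 0.14 of their mean.

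A property of these genes that the choice by function did not measure is the sequence at their start sites. Promoter windows from RefSeq (build GRCh38.p14), from 250 bases before to 50 bases after each gene start, were at hand for 46 of the 52 genes (61 windows). No window was at hand for MCM4, GINS4, RPA2 and RPA3, which fell, or for MCM5 and POLD3, which were not called. The E2F letters TTTGGCGC, TTTCGCGC, TTTCCCGC or TTTGCCGC, searched on both strands, occurred in 23 of the 61 windows (37.7%), beside 3.31% of all 35116 windows. The CCAAT letters occurred in 54.1% of the members' windows and 34.6% of all windows, and the letters TTTGAA in 3.28% and 15.2%. An E2F match overlapped a CCAAT match in 5 of all windows. The set of all windows was not matched to the members by expression or base composition. By call, 5 of 8 genes that rose, 7 of 16 that fell and 11 of 22 that were not called had an E2F match in at least 1 window. The match was thus present on both sides of the response. The first E2F match of the 12 called genes is given here with its surroundings, on the strand of the gene and with the matched letters in capitals, to let the genes that rose be read beside those that fell.
TOPBP1: ccgcgcggttgGCGCGAAAgtcggttcccg
CLSPN: actctggctggGCGGGAAAgcaagaacagc
POLA1: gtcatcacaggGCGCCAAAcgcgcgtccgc
RFC3: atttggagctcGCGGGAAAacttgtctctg
MCM6: agggctttgcaTTTGGCGCGAAAtcccttt
CDC6: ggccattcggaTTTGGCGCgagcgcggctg
POLA2: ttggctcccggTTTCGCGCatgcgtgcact
TYMS: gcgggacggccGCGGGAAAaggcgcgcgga
MCM3: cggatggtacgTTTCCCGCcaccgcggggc
GINS3: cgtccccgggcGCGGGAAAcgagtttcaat
DUT: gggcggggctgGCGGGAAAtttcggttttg
GINS1: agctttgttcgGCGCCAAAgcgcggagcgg

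The first 5 of these genes rose and the other 7 fell. The lines shown for TOPBP1 and GINS1, the called gene with the highest and the shown gene with the lowest fold change, lie at chr3:133661930-133661959 on the minus strand and chr20:25407667-25407696 on the plus strand. Counted from the RefSeq starts, the letters begin 7 bases before the start of TOPBP1 and at base 6 after the start of GINS1. MCM6 held 4 matches in its window, and DUT and MCM3 held 2 each. A match of letters is a description of the sequence and does not show that a factor binds there.

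The origin recognition complex, whose subunits mark the sites where replication can start, split by subunit. ORC1, the subunit whose level varies over the cell cycle, had 73.3, 92 and 82.6 CPM in the UNC1999 libraries and 137 and 113 CPM in the DMSO libraries. It fell, with a log2 value of UNC1999 over DMSO of -0.59 ± 0.12 (SE; edgeR adjusted p = 0.000124). ORC6 also fell, with 41.9, 55.05 and 44.9 CPM in the UNC1999 libraries and 65.7 and 60.9 CPM in the DMSO libraries (log2 fold change -0.42). ORC2, a core subunit, rose, with 36.8, 35.8 and 34.8 CPM in the UNC1999 libraries and 26.4 and 29.2 CPM in the DMSO libraries (log2 fold change 0.36). For these 3 genes the groups did not overlap. ORC3 (0.30), ORC4 (0.19) and ORC5 (-0.033) were not called. Per kilobase of transcript, the ratio of ORC1 to ORC2 was 2.72, 3.51 and 3.24 in UNC1999 libraries, below 7.05 and 5.26 in DMSO libraries. The calls of ORC2 and ORC6 were lost without DMSO replicate 1 and without UNC1999 replicate 1, and that of ORC2 also without DMSO replicate 2. With offsets for GC content and length, ORC1 was lower by less (-0.22), and ORC2 (0.059, edgeR adjusted p = 0.705) and ORC6 (-0.19, edgeR adjusted p = 0.0872) were not called.

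Of the factors that load the MCM ring and their inhibitor, only CDC6 was called. CDC6, the loading ATPase, had 85.4, 105 and 86.9 CPM in the UNC1999 libraries and 116 and 113 CPM in the DMSO libraries (log2 fold change -0.31 ± 0.11 SE; edgeR adjusted p = 0.0302). That call was lost in 12 of 19 alternatives, among them leaving out any library except UNC1999 replicate 2. CDT1, the other loader, had 263, 199 and 266 CPM in the UNC1999 libraries and 222 and 221 CPM in the DMSO libraries, and UNC1999 replicate 2 lay below both DMSO libraries while the others lay above. Without that library CDT1 was called higher (0.27, edgeR adjusted p = 0.00294). GMNN, which encodes geminin, the protein that binds CDT1 and blocks a second round of loading, had a log2 fold change of 0.043 (95% interval -0.19 to 0.28).

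The ring itself, MCM2 to MCM7, is built of equal numbers of each subunit, but the transcripts did not move together. MCM4 had 445, 551 and 464 CPM in the UNC1999 libraries and 924 and 829 CPM in the DMSO libraries, the lowest fold change of the whole set (log2 fold change -0.85 ± 0.11 SE; edgeR adjusted p = 2.89e-07). MCM3 had 551, 612 and 566 CPM in the UNC1999 libraries and 889 and 834 CPM in the DMSO libraries (log2 fold change -0.58 ± 0.11 SE; edgeR adjusted p = 4.43e-05). Every UNC1999 library was below both DMSO libraries for these 2 genes, and with offsets the values were -0.55 and -0.23. MCM6 rose, with 208, 242 and 198 CPM in the UNC1999 libraries and 170.5 and 176 CPM in the DMSO libraries (log2 fold change 0.32 ± 0.11 SE; edgeR adjusted p = 0.0234), a call lost without DMSO replicate 1 or DMSO replicate 2. MCM5 had 558, 469 and 605 CPM in the UNC1999 libraries and 484 and 460.5 CPM in the DMSO libraries, with UNC1999 replicate 2 between the DMSO libraries and the other UNC1999 libraries above both, and was called only without UNC1999 replicate 2, without normalization factors or with offsets. MCM2 (log2 fold change -0.026, 95% interval -0.25 to 0.19) and MCM7 (0.0080, 95% interval -0.21 to 0.22) were not called.

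CPM per kilobase of transcript allows only a rough comparison between genes, since the length is that of 1 reference transcript per gene. On this scale MCM7 was the highest of the 52 genes, at 434 ± 35 in UNC1999 and 431 ± 11.2 in DMSO (mean ± SD, n = 3 and n = 2). MCM6 was the lowest of the ring, at 57.8 ± 6.14 in UNC1999 and 46.3 ± 0.952 in DMSO. Of the summed ring transcripts per kilobase, MCM4 made up 8.75%, 11.3% and 8.74% in the UNC1999 libraries and 15.6% and 15.0% in the DMSO libraries. MCM3 made up 14.1%, 16.3% and 13.9% in UNC1999 and 19.5% and 19.7% in DMSO. The shares of MCM5 (11.4% to 13.5% in UNC1999, 9.66% and 9.85% in DMSO), MCM6 (4.17% to 5.54% in UNC1999, 3.22% and 3.55% in DMSO) and MCM7 (34.1% to 36.9% in UNC1999, 31.0% and 32.0% in DMSO) were all larger in UNC1999. Since shares sum to a whole, lower shares of MCM3 and MCM4 raise the others.

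**Figure D3:**
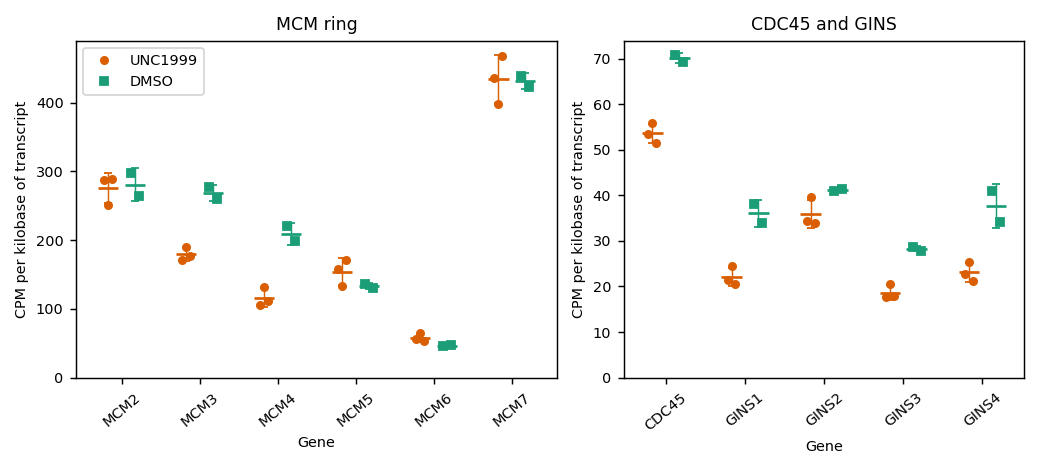
CPM per kilobase of transcript (vertical axis) of the MCM ring genes and of CDC45 and the GINS genes in each library, with UNC1999 left of DMSO for each gene; points are libraries, horizontal lines means and error bars SD (n = 3 and n = 2). MCM3, MCM4, CDC45, GINS1, GINS2, GINS3 and GINS4 show no overlap between the groups and are lower in UNC1999, and of these GINS2 was not called.

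Among the genes that turn the ring into the active helicase, 4 of 7 fell and 1 rose, beside 19.5% lower and 15.7% higher of all tested genes. The median log2 fold change of the 7 was -0.39, and -0.011 with offsets for GC content and length, which gave 3 lower and 1 higher. GINS1 had 69.7, 79.2 and 66.5 CPM in the UNC1999 libraries and 124 and 110.3 CPM in the DMSO libraries (log2 fold change -0.70 ± 0.11 SE; edgeR adjusted p = 7.05e-06). GINS4 had 87.2, 97.7 and 81.1 CPM in the UNC1999 libraries and 158 and 131 CPM in the DMSO libraries (log2 fold change -0.70 ± 0.11 SE; edgeR adjusted p = 8.47e-06), and GINS3 had 40.2, 46.6 and 40.5 CPM in the UNC1999 libraries and 65.4 and 63.4 CPM in the DMSO libraries (log2 fold change -0.60). The fourth subunit of the GINS complex, GINS2, had 91.7, 106 and 90.5 CPM in the UNC1999 libraries and 109 and 111 CPM in the DMSO libraries, lower in each UNC1999 library but not called (log2 fold change -0.20, 95% interval -0.42 to 0.026). It passed the test when UNC1999 replicate 2 was left out. Per kilobase, the ratio of GINS1 to GINS2 was 0.625, 0.617 and 0.604 in the UNC1999 libraries, below 0.931 and 0.819 in the DMSO libraries. CDC45, the protein that joins GINS on the ring, fell, with 112, 117 and 108 CPM in the UNC1999 libraries and 148 and 145 CPM in the DMSO libraries (log2 fold change -0.39 ± 0.11 SE), a call lost without DMSO replicate 1 and with offsets (-0.011, edgeR adjusted p = 0.922). With offsets GINS3 had -0.25 and GINS4 -0.41.

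TOPBP1, the scaffold that brings CDC45 and GINS to the ring and activates the checkpoint kinase ATR, had the highest fold change of the set. It had 168, 168 and 177 CPM in the UNC1999 libraries and 101 and 101 CPM in the DMSO libraries (log2 fold change 0.76 ± 0.11 SE; edgeR adjusted p = 1.69e-06). TOPBP1 spans bases 133598175 to 133662380 of chromosome 3 in GENCODE 29, which uses GRCh38 while the submitters' notes name hg19. GINS1 spans bases 25407727 to 25452628 of chromosome 20. MCM10, another activation factor, had 47.1, 56.4 and 47.1 CPM in the UNC1999 libraries and 45.3 and 37.3 CPM in the DMSO libraries (log2 fold change 0.28, edgeR adjusted p = 0.0758), not called, with all UNC1999 libraries above both DMSO libraries.

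The genes for polymerase alpha and its primase also moved in different directions. POLA1, the catalytic subunit, rose, with 61.3, 68.9 and 61.9 CPM in the UNC1999 libraries and 40.1 and 44.2 CPM in the DMSO libraries (log2 fold change 0.60 ± 0.12 SE; edgeR adjusted p = 0.000133). POLA2, its accessory subunit, fell, with 14, 13.1 and 15.2 CPM in the UNC1999 libraries and 19.2 and 21.4 CPM in the DMSO libraries (log2 fold change -0.53 ± 0.14 SE; edgeR adjusted p = 0.00382), a call lost without DMSO replicate 2 and with offsets (-0.31). The ratio of POLA1 to POLA2 per kilobase was 2.99, 3.59 and 2.77 in UNC1999 libraries, above 1.42 and 1.41 in DMSO libraries. PRIM2, the large primase subunit, rose, with 30.04, 36.95 and 29.6 CPM in the UNC1999 libraries and 24.6 and 23.9 CPM in the DMSO libraries (log2 fold change 0.41), a call lost without either DMSO library and with offsets (0.26). The catalytic primase gene PRIM1 had -0.034 (95% interval -0.29 to 0.23).

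None of the 5 member genes for the polymerases that extend the strands was called. Polymerase delta had log2 fold changes of 0.22 for its catalytic subunit gene POLD1, 0.13 for POLD2 and 0.26 for POLD3. POLD1 had 346, 271 and 378 CPM in the UNC1999 libraries and 289.7 and 279 CPM in the DMSO libraries, with UNC1999 replicate 2 below both DMSO libraries, and both POLD1 and POLD2 passed the test without that library. Polymerase epsilon had -0.11 for the catalytic subunit gene POLE (95% interval -0.34 to 0.11) and 0.18 for POLE2.

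PCNA, the sliding clamp, had 329, 372 and 319.6 CPM in the UNC1999 libraries and 345 and 381 CPM in the DMSO libraries. The groups overlapped, and its log2 fold change was -0.092 (95% interval -0.31 to 0.13). The subunits of replication factor C, which opens the clamp and places it on DNA, split. RFC1, the large subunit, rose, with 99.04, 90.04 and 86.6 CPM in the UNC1999 libraries and 63.9 and 65.2 CPM in the DMSO libraries (log2 fold change 0.51 ± 0.11 SE; edgeR adjusted p = 0.000553). RFC3 rose too, with 91.7, 109.5 and 92.8 CPM in the UNC1999 libraries and 72.01 and 82.6 CPM in the DMSO libraries (log2 fold change 0.34), a call lost without DMSO replicate 1 and with offsets (0.061). RFC5 fell, with 50.5, 59.4 and 45.7 CPM in the UNC1999 libraries and 73.1 and 71.7 CPM in the DMSO libraries (log2 fold change -0.48 ± 0.12 SE; edgeR adjusted p = 0.00149). With offsets RFC1 had 0.29 and RFC5 -0.26. RFC2 (-0.21) and RFC4 (-0.0062) were not called.

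All 3 subunits of replication protein A, which coats unwound DNA, fell. RPA2 had 169, 196 and 166 CPM in the UNC1999 libraries and 243 and 246 CPM in the DMSO libraries (log2 fold change -0.47 ± 0.11 SE; edgeR adjusted p = 0.000897). RPA3 had 40.9, 44.7 and 34.6 CPM in the UNC1999 libraries and 50.4 and 53.03 CPM in the DMSO libraries (log2 fold change -0.37), and RPA1 had 119, 143 and 125 CPM in the UNC1999 libraries and 160.5 and 152 CPM in the DMSO libraries (log2 fold change -0.28, edgeR adjusted p = 0.0453). The call of RPA1 was lost in 14 of 19 alternatives, among them leaving out any library but UNC1999 replicate 2, and that of RPA3 was lost without UNC1999 replicate 3 and without either DMSO library. With offsets none of the 3 was called (0.0053, -0.12 and -0.15 for RPA1, RPA2 and RPA3).

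FEN1, the nuclease that trims the flaps of Okazaki fragments on the lagging strand, fell. It had 151, 183 and 144 CPM in the UNC1999 libraries and 239.9 and 265 CPM in the DMSO libraries (log2 fold change -0.66 ± 0.11 SE; edgeR adjusted p = 1.91e-05), and the groups did not overlap. With offsets FEN1 had -0.36. LIG1, the ligase that seals the fragments, had 219.9, 194 and 225 CPM in the UNC1999 libraries and 220.1 and 212 CPM in the DMSO libraries, with overlapping groups and a log2 fold change of -0.021 (95% interval -0.24 to 0.20). Both member genes for chromatin assembly factor 1, which places histones on new DNA behind PCNA, fell. CHAF1A had 274, 259 and 272 CPM in the UNC1999 libraries and 362 and 356 CPM in the DMSO libraries (log2 fold change -0.42 ± 0.10 SE; edgeR adjusted p = 0.00183). CHAF1B had 65.7, 69.5 and 60.6 CPM in the UNC1999 libraries and 97.3 and 82.2 CPM in the DMSO libraries (log2 fold change -0.46 ± 0.11 SE; edgeR adjusted p = 0.00167), a call lost without DMSO replicate 1 and with offsets (-0.16).

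TIMELESS, TIPIN and CLSPN travel with the fork and pass the signal of stalled forks to the kinase CHEK1. CLSPN, which encodes claspin, the adaptor of that signal, rose, with 131, 139 and 152 CPM in the UNC1999 libraries and 77.3 and 91.1 CPM in the DMSO libraries (log2 fold change 0.74 ± 0.12 SE; edgeR adjusted p = 5.77e-06). TIMELESS fell, with 149, 146 and 141 CPM in the UNC1999 libraries and 201 and 191 CPM in the DMSO libraries (log2 fold change -0.43 ± 0.11 SE; edgeR adjusted p = 0.00149), a call lost without DMSO replicate 1, and had -0.17 with offsets. For both genes the groups lay apart, on opposite sides. The ratio of CLSPN to TIMELESS per kilobase was 0.947, 1.02 and 1.15 in UNC1999 libraries, above 0.413 and 0.511 in DMSO libraries. TIPIN, the partner of TIMELESS, had -0.16 (edgeR adjusted p = 0.343).

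Of the 5 genes for nucleotide supply, 2 fell and 0 rose, beside 19.5% lower and 15.7% higher of all tested genes. With offsets 3 were lower (DUT, TYMS and RRM2) and 1 higher (TK1), beside 18.4% and 15.5% of all genes. The genes that fell without offsets, DUT and TYMS, act where thymidine nucleotides are made and uracil is kept out of DNA. DUT, which destroys dUTP, had 179, 233 and 171 CPM in the UNC1999 libraries and 308 and 322 CPM in the DMSO libraries (log2 fold change -0.70 ± 0.12 SE; edgeR adjusted p = 1.47e-05). TYMS, the thymidylate synthase gene, had 194, 223 and 202 CPM in the UNC1999 libraries and 299.7 and 307 CPM in the DMSO libraries (log2 fold change -0.56 ± 0.11 SE; edgeR adjusted p = 0.0001). Each UNC1999 library lay below both DMSO libraries for these genes, and with offsets TYMS had -0.17 and DUT -0.63. TK1, the kinase that salvages thymidine, had 339, 261 and 353 CPM in the UNC1999 libraries and 264 and 273 CPM in the DMSO libraries (log2 fold change 0.24, edgeR adjusted p = 0.106) and was not called, with UNC1999 replicate 2 below both DMSO libraries and the others above. Without replicate 2 it passed the test. For ribonucleotide reductase, the small subunit gene RRM2 had 525, 614 and 563 CPM in the UNC1999 libraries and 703 and 658 CPM in the DMSO libraries (log2 fold change -0.26, edgeR adjusted p = 0.0533), just short of the threshold and called when UNC1999 replicate 2 was left out, and the large subunit gene RRM1 had 0.13 (95% interval -0.089 to 0.36). The ratio of RRM2 to RRM1 per kilobase was 2.97, 2.96 and 3.10 in UNC1999 libraries, below 4.16 and 3.76 in DMSO libraries.

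The fold changes of the members followed the GC content of their transcripts, as those of all genes did. Of the 9 members with 46% to 50% GC, 8 fell and 0 rose, and of the 6 members with 50% to 54%, 5 fell and 0 rose. Among tested protein-coding genes in these ranges, 49.4% and 52.1% fell, with median log2 fold changes of -0.35 and -0.34. Of the 11 members below 42% GC, 4 rose and 1 fell (GINS1), where 45.9% of protein-coding genes rose and 5.31% fell. Of the 11 members at 54% GC or more, 0 rose and 2 fell (POLA2 and CHAF1A), where 6.95% of protein-coding genes rose and 9.56% fell. Of the 15 members with 42% to 46% GC, 4 rose and 4 fell, where 21.1% of protein-coding genes rose and 21.5% fell. Those that rose included TOPBP1, CLSPN and POLA1, and those that fell included DUT. GC content thus moved with the calls, except in this range, where members were called in both directions.

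**Figure D4:**
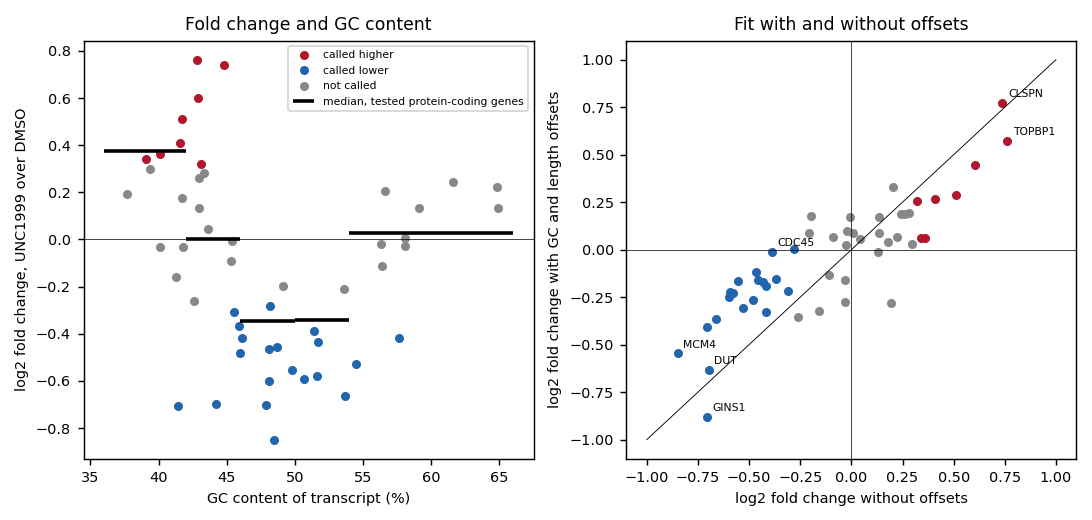
Left, log2 fold change of each member against the GC content of its transcript, with the median of all tested protein-coding genes in each range of GC content as a black line. Right, log2 fold change with offsets for GC content and transcript length against the value without them; points above the diagonal moved up. Most members called lower lie between 46% and 54% GC, and with offsets CDC45 moves to -0.011 while GINS1 moves to -0.88.

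The calls shared by the fits with and without the offsets were 5 higher (TOPBP1, CLSPN, POLA1, RFC1 and MCM6) and 13 lower. With offsets the lowest values were -0.88 for GINS1, -0.63 for DUT and -0.55 for MCM4, and the highest were 0.77 for CLSPN and 0.57 for TOPBP1. Of the shared lower calls, TYMS (-0.17), TIMELESS (-0.17), CDC6 (-0.22), ORC1 (-0.22) and MCM3 (-0.23) lay nearest to 0. The 7 lower calls lost were ORC6, CDC45, POLA2, CHAF1B and the 3 RPA genes, and the 3 higher calls lost were ORC2, PRIM2 and RFC3. Genes called only with offsets were RRM2 (-0.36, edgeR adjusted p = 2.24e-05), TIPIN (-0.32) and PRIM1 (-0.28), which were lower, and MCM5 (0.33), TK1 (0.19) and POLD2 (0.17), which were higher. Among genes with no call in either fit, GINS2 had 0.18 with offsets (edgeR adjusted p = 0.0515) against -0.20 without, RFC2 had 0.089 against -0.21, and ORC4 had -0.28 against 0.19.

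Other genes of the same pathway also moved in both directions. Of 69 listed, 67 were tested, 14 rose (20.9%, beside 15.7% of all tested genes) and 19 fell (28.4%, beside 19.5%). With offsets 9 were higher (13.4%, beside 15.5% of all genes in that fit) and 19 lower (28.4%, beside 18.4%). ATAD5, which takes PCNA off DNA after replication, rose, with 32.9, 29.98 and 34.2 CPM in the UNC1999 libraries and 15.8 and 16.2 CPM in the DMSO libraries (log2 fold change 1.02, with offsets 0.54). ATR, the checkpoint kinase that TOPBP1 activates, rose, with 40.1, 35.4 and 41.5 CPM in the UNC1999 libraries and 20.5 and 19.3 CPM in the DMSO libraries (log2 fold change 0.97, with offsets 0.53). The translesion polymerase gene REV3L (1.03, with offsets 0.53), TOP2A, a topoisomerase gene (0.61, with offsets 0.21), and RIF1, a regulator of replication timing (0.70, with offsets 0.059 and no call), rose too. POLE3, a small subunit of polymerase epsilon, fell, with 128, 173 and 138 CPM in the UNC1999 libraries and 248 and 249 CPM in the DMSO libraries (log2 fold change -0.76, with offsets -0.51). CDC25A, the phosphatase that activates CDK2, fell, with 61.4, 73.5 and 64.5 CPM in the UNC1999 libraries and 109.8 and 107 CPM in the DMSO libraries (log2 fold change -0.70, with offsets -0.38). POLH, another translesion polymerase gene (-0.70, with offsets -0.42), CTPS1, which makes CTP (-0.59, with offsets -0.22), and DCTD, which feeds dUMP to TYMS (-0.59, with offsets -0.27), fell as well.

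By role, the 9 listed origin firing genes gave 3 higher and 1 lower, the 7 tested genes of fork and Okazaki processing gave 5 higher and 0 lower, and the 7 genes for chromatin on new DNA gave 0 higher and 4 lower (NASP, UHRF1, DNMT1 and SLBP). The 26 other nucleotide genes gave 2 higher and 8 lower. The 5 genes of the ATR branch gave 1 higher (ATR) and 3 lower (ATRIP, WEE1 and CDC25A), and CHEK1 was not called. Over all tested genes 15.7% were higher and 19.5% lower, and with groups this small the counts are given without a comparison. With offsets these groups had 0 higher and 0 lower, 2 and 1, 1 and 4, 2 and 8, and 1 and 4. In that fit 15.5% of all genes were higher and 18.4% lower. The median GC content was 40.1% for the origin firing genes, 41.2% for fork and Okazaki processing and 50.7% for chromatin on new DNA.

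Some counts are uncertain because genes share sequence. In GENCODE 29, exons of 20 members overlap a gene on the opposite strand, and no strand setting is given in the sources used here. Among called genes the longest such overlaps were in GINS4 (1159 bases), TYMS (967 bases, with ENOSF1), GINS3 (558 bases) and DUT (533 bases), and POLA2 overlaps a gene on its own strand over 2012 bases. DUT has 8 named pseudogenes, which held 17 counts in all 5 libraries together.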

How the data were processed

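RNA of 3 UNC1999 and 2 DMSO libraries was analysed from whole-number counts per gene symbol, raw counts as deposited by the authors in 1 table. The submitters' processing notes list build hg19 and, with no role or settings, HTSeq 0.13.5, STAR 2.7.9, fastp and edgeR 3.34.0. The sources used here give no annotation, strand setting or filter. Columns were matched to samples by name.

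Genes passing filterByExpr (13075) were tested with the quasi-likelihood F-test of edgeR 4.0.16 (R 4.3.3) after TMM scaling and without a block. P-values were adjusted over all of them by Benjamini-Hochberg, and an adjusted p under 0.05 was called. CPM are scaled by the TMM factors (1.01 to 1.05 in UNC1999, 0.954 and 0.961 in DMSO). Log2 CPM uses a prior count of 2. Length and GC content came from 1 GENCODE 29 transcript per gene (84.3% of tested genes), without conversion of coordinates. For the offsets, the difference between a library and the average library was fitted by splines of GC content (6 degrees of freedom) and of length (4) and removed. A count of 0 allows up to 3 counts, which covers counting error only.

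All 52 members are named, with values per library for called members, and up to 5 genes per direction of the list of other pathway genes by smallest p. The members, lists, ranges of GC content and pairs for ratios were chosen with earlier results of these data known. Not every ratio computed is printed. Those of MCM2 to MCM7, CDT1 to GMNN and POLD1 to POLD2 overlapped between the groups, and the others did not. The mean of these ratios in UNC1999 over that in DMSO was 0.978, 1.07 and 1.06. For POLA1 to POLA2, CLSPN to TIMELESS and ORC1 to ORC2, both genes already lay apart, in opposite directions. Their ratios therefore had to lie apart and are no further result. No ratio used the offsets. The alternatives included DESeq2 1.42.0 and limma 3.58.1 (voom). In a simulation of UNC1999 against DMSO with 13075 genes and 200 changed, the test found the true direction for 88.8% of 2-fold and 70.5% of 1.5-fold changes, and 3.14% of its calls were false. Far fewer genes changed in it than were called in the data (35.2% of tested genes). It also set no library apart, as UNC1999 replicate 2 was in the data. These rates therefore need not hold for the data. Where 11026 genes were given a GC trend but no change, 5317 calls were made, and 0 once offsets were used. That trend was a smooth function of the same GC content that the offsets fit, so the 0 shows only that they remove it. The offsets would also remove a real response that followed GC content. Whether the trend in the data is technical was not tested.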

Additional observations from a re-analysis of the deposited data

How the results depend on the processing

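Each of the 52 genes was refitted under 19 alternatives. Of the resulting 988 values, 845 kept the direction and the side of the threshold, 73 kept the direction but lost the call and 26 gained one. In the other 44 the sign changed, and 43 of these concerned genes with no call in either fit. The exception was RPA1 with offsets (0.0053, edgeR adjusted p = 0.963). Among genes whose sign changed, offsets gave -0.013 (CDT1), 0.18 (GINS2), 0.10 (LIG1), 0.023 (MCM2), -0.28 (ORC4), 0.067 (PCNA), 0.089 (RFC2) and 0.17 (RFC4). Without normalization factors the values were 0.082 (LIG1), 0.077 (MCM2), 0.073 (ORC5), 0.013 (PCNA), 0.072 (PRIM1) and 0.098 (RFC4). Upper-quartile factors gave 0.049 (LIG1), 0.044 (MCM2), 0.038 (ORC5), 0.037 (PRIM1) and 0.064 (RFC4), and the stricter filter gave 0.018 (LIG1), 0.013 (MCM2), 0.0093 (ORC5), 0.0078 (PRIM1) and 0.035 (RFC4). DESeq2 size factors and the DESeq2 Wald test both gave 0.0017 (LIG1) and 0.018 (RFC4). With 1 library left out in turn the genes whose sign changed ran over -0.061 to 0.053 (LIG1), -0.11 to 0.060 (MCM2), -0.049 to 0.077 (MCM7), -0.13 to 0.095 (ORC5), -0.23 to 0.016 (POLE), -0.087 to 0.075 (PRIM1), -0.081 to 0.066 (RFC4). The cause was not tested.

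The median of the 52 genes was 0.042 without normalization factors and 0.0076 with upper-quartile factors. Members called higher numbered 14 without normalization factors, 4 at a threshold of 0.01 and 4 with glmTreat against a 1.2-fold change, which left 9 lower members. With glmTreat 1218 of all genes were higher and 1167 lower, and 9 other pathway genes were lower. With offsets 9 other pathway genes were higher. With 1 library left out, members called higher ran from 4 to 13 and lower from 13 to 22. Over all genes the ranges were 1158 to 2862 higher and 1367 to 3030 lower, and over other pathway genes 10 to 19 higher and 9 to 22 lower. With the replicate block 8 members were higher and 17 lower, with signs changed for MCM7 (-0.051), ORC5 (0.094) and PRIM1 (0.074). Deviations of libraries with the same number correlated at 0.066 and 0.038. The deviations of the DMSO libraries mirror each other, so these values cannot settle whether libraries are paired. The labels do not state pairing, and the numbers were not taken as pairs. At this depth the member with the fewest counts (POLE2, 73 to 111 counts) had a standard error of 0.18 on the log2 scale.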
